A study of Mus musculus with 40 samples.

Results

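The 8 genes described here carry endothelin, nitric oxide and natriuretic peptide signalling in the mouse aorta. They are the peptide gene Edn1, its receptor genes Ednra and Ednrb, the endothelial nitric oxide synthase gene Nos3, the natriuretic peptide receptor genes Npr1 and Npr3, and the phosphodiesterase genes Pde5a and Pde3a. They were taken by symbol, and each matched exactly 1 row in both expression tables, which list 17402 genes (genotype experiment) and 15399 genes (cyclosporin A experiment). The rule itself uses no measured value, although the set was proposed with earlier results of these data known. All 8 passed the filter on low values in both experiments.

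RNA from whole aortas of male mice was sequenced after removal of the perivascular tissue and adventitia, with each library made from a pool of 3 aortas. In the genotype experiment (22 libraries), Cn-Ctl mice (CnB1-flox;Myh11-CreERT2-neg) were compared with SM-Cn-/- mice (CnB1-flox;Myh11-CreERT2-pos), in which the Cre driven by Myh11 deletes the regulatory B1 subunit of calcineurin in smooth muscle cells. The labels give the floxed allele for both genotypes, although the study's methods also list CnB1 wild-type mice with the Cre among such controls. Both were given 1 mg of tamoxifen daily for 5 days at 10 to 12 weeks of age, and were used 6 weeks later. In the CsA experiment (18 libraries), C57BL/6J mice aged 10 to 12 weeks were either operated without a pump (WT) or received cyclosporin A (CsA), an inhibitor of calcineurin phosphatase activity, by minipump for 5 days. Angiotensin II (Ang-II) was infused at 1 µg/kg/min for 2, 6 or 24 h in the genotype experiment and for 2 or 24 h in the CsA experiment. The untreated mice of each arm are called basal. Ang-II-treated Cn-Ctl, WT and CsA mice entered the libraries only if their systolic pressure exceeded 130 mmHg, whereas no pressure limit was set for SM-Cn-/- mice. SM-Cn-/- mice without detected CnB1 deletion and CsA-treated mice without inhibited NFAT dephosphorylation in the thymus were removed. Of the 14 groups, 12 had 3 libraries, and the basal and 24 h groups of Cn-Ctl had 2. By the study's methods, 1 untreated Cn-Ctl replicate was left out because it lay far from its group mates in a principal component analysis. The spread of the Cn-Ctl basal group is therefore that of the replicates kept.

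Endothelin-1 is a vasoconstrictor peptide released mainly by endothelium, and it acts on the type A receptor of smooth muscle and on the type B receptor, which in endothelium promotes nitric oxide release. Nitric oxide and the natriuretic peptides relax smooth muscle by raising cyclic GMP, through soluble guanylyl cyclase and through the receptor cyclase Npr1, while Npr3 clears the peptides. Pde5a breaks down cyclic GMP, and Pde3a breaks down cyclic AMP and is inhibited by cyclic GMP.

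Depth was 2.73 to 10.25 M reads for genotype libraries and 18.98 to 38.9 M reads for CsA libraries. The mean correlation of a library with its group mates was 0.910 to 0.969 in the first and 0.944 to 0.989 in the second, with the lowest among the 6 h groups of the first and the CsA 2 h group of the second. Values are given as normalized values, which are reads divided by a scaled library size, so they do not sum to the same total in each library. The totals were 877583 to 939727 in WT basal and 1040808 to 1154874 in WT 2 h libraries. They were 907723 to 949677 in CsA basal and 994178 to 1153694 in CsA 2 h libraries. Ppp3r1, the gene for the subunit deleted in SM-Cn-/- mice, measured 104 and 78.8 in the Cn-Ctl basal libraries and 83.5, 69.5 and 48.8 in the SM-Cn-/- basal libraries. The Ppp3r1 ranges overlapped and the difference passed the test in no comparison, so this transcript did not separate the genotypes, and which part of it is deleted is not given in the sources used here. The tissue label was borne out by the 10 smooth muscle markers, which include Myh11 and Acta2 and summed to between 18563 and 52571 per library. The 12 endothelial markers summed to between 498 and 2003. Markers of other tissues were present too. Those of adventitial fibroblasts summed to 402 to 1511 per library, of adipose tissue to 427 to 6676 and of cardiac muscle to 22.8 to 1681.

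Npr1 had the highest level of the 8 genes per kilobase of exon. Its mean normalized value on this scale was 80.8 over the 22 genotype libraries and 76.8 over the 18 CsA libraries. Pde3a (18.4 and 22.3), Pde5a (17.2 and 17.8) and Edn1 (14.6 and 10.6) came next on the same scale. The SDs over libraries of Pde3a (7.35), Pde5a (6.02) and Edn1 (5.38) in the genotype experiment exceeded the gaps between their means. Nos3 followed at 6.47 and 13.5 per kilobase. Ednrb (2.39 and 4.50), Npr3 (2.79 and 2.99) and Ednra (2.45 and 2.36) were lowest, and in the genotype experiment they lay within 1 SD of each other. In the shallower experiment Ednrb rested on as few as 15 reads and Ednra on as few as 20.

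**Figure D1:**
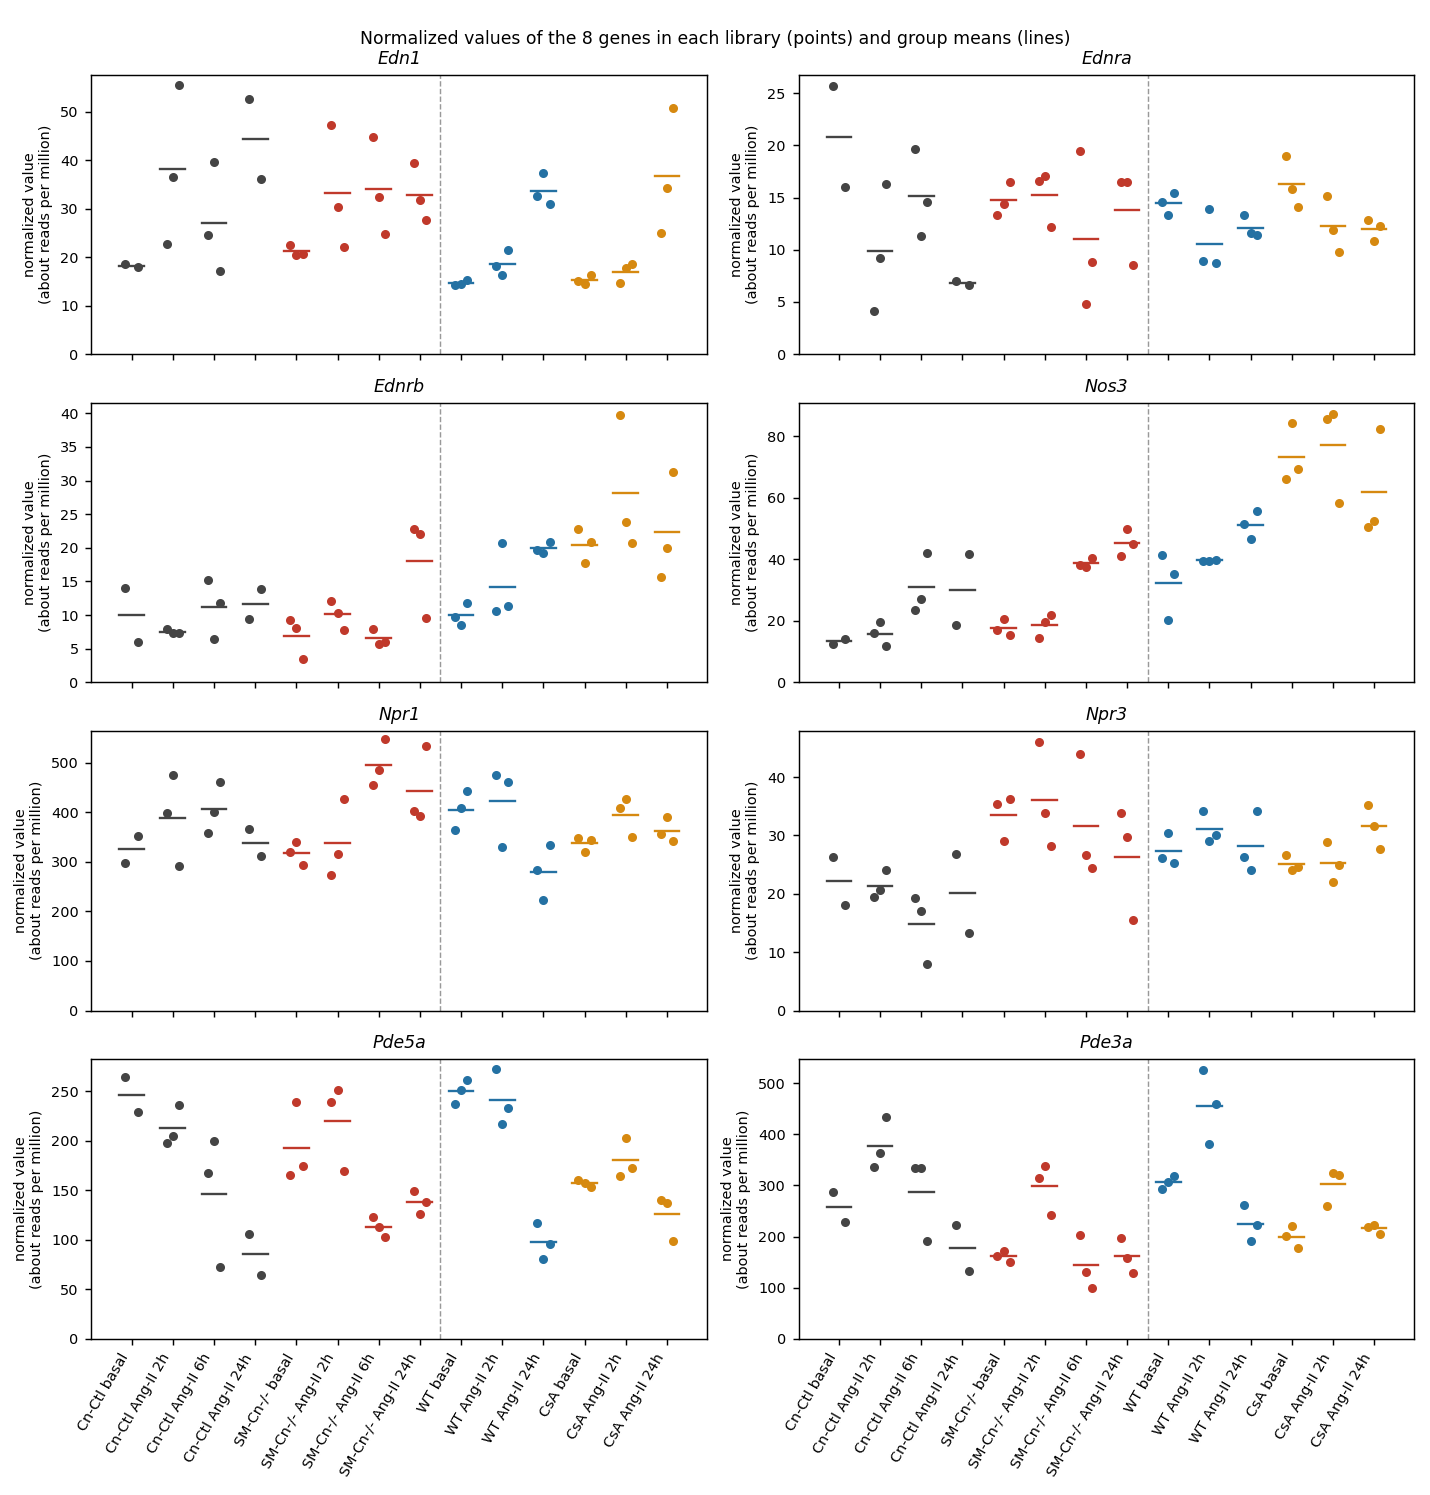
Normalized value (reads divided by a scaled library size, vertical axis from 0) of each of the 8 genes in each of the 40 libraries (points). The group mean is a line and the 14 groups are on the horizontal axis. The dashed line separates the genotype experiment from the CsA experiment, which were normalized separately. Pde5a fell from 237 to 262 in the WT basal libraries to 80.6 to 117 at 24 h, and Edn1 was higher in all 3 WT and all 3 CsA libraries at 24 h than in their basal libraries.

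A gene was called changed when its adjusted p from limma, taken over all protein-coding genes tested (14424 for genotype and 13738 for CsA), was under 0.05. Of 176 tests of the 8 genes over 22 comparisons, 20 passed. Over all genes the share that passed ran from 0.0139% (SM-Cn-/- basal against Cn-Ctl basal) to 35% (WT at 24 h against basal). It is given below as the background of each comparison. The comparisons of one arm share its basal libraries, so they are not independent of each other. Because p-values measure the spread between pools, they say nothing of the spread between single mice.

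In Cn-Ctl mice, 0 of the 8 genes passed at 2 h, where 6.23% of all genes did. At 6 h 1 passed (background 3.97%), and at 24 h 1 passed (5.62%). For the 2 h comparison, limma gave 2 of the 8 genes an unadjusted p under 0.05, as it did 2680 of the 14424 genes tested. There edgeR called 0 of the 8 and DESeq2 called 1. In SM-Cn-/- mice, 0 passed at 2 h (background 1.13%), 1 at 6 h (2.34%) and 1 at 24 h (0.79%). In that arm at 2 h, 1 of the 8 had an unadjusted p under 0.05 with limma, as did 1870 of 14424 genes. There edgeR called 0 and DESeq2 called 1. In WT mice 1 gene passed at 2 h, against a background of 21.4%, and 6 passed at 24 h, against 35%. In CsA-treated mice 1 passed at 2 h (background 20.1%) and 1 at 24 h (8.98%). Outside WT mice at 24 h, no comparison of Ang-II with basal called more than 1 of the 8 genes.

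**Figure D2:**
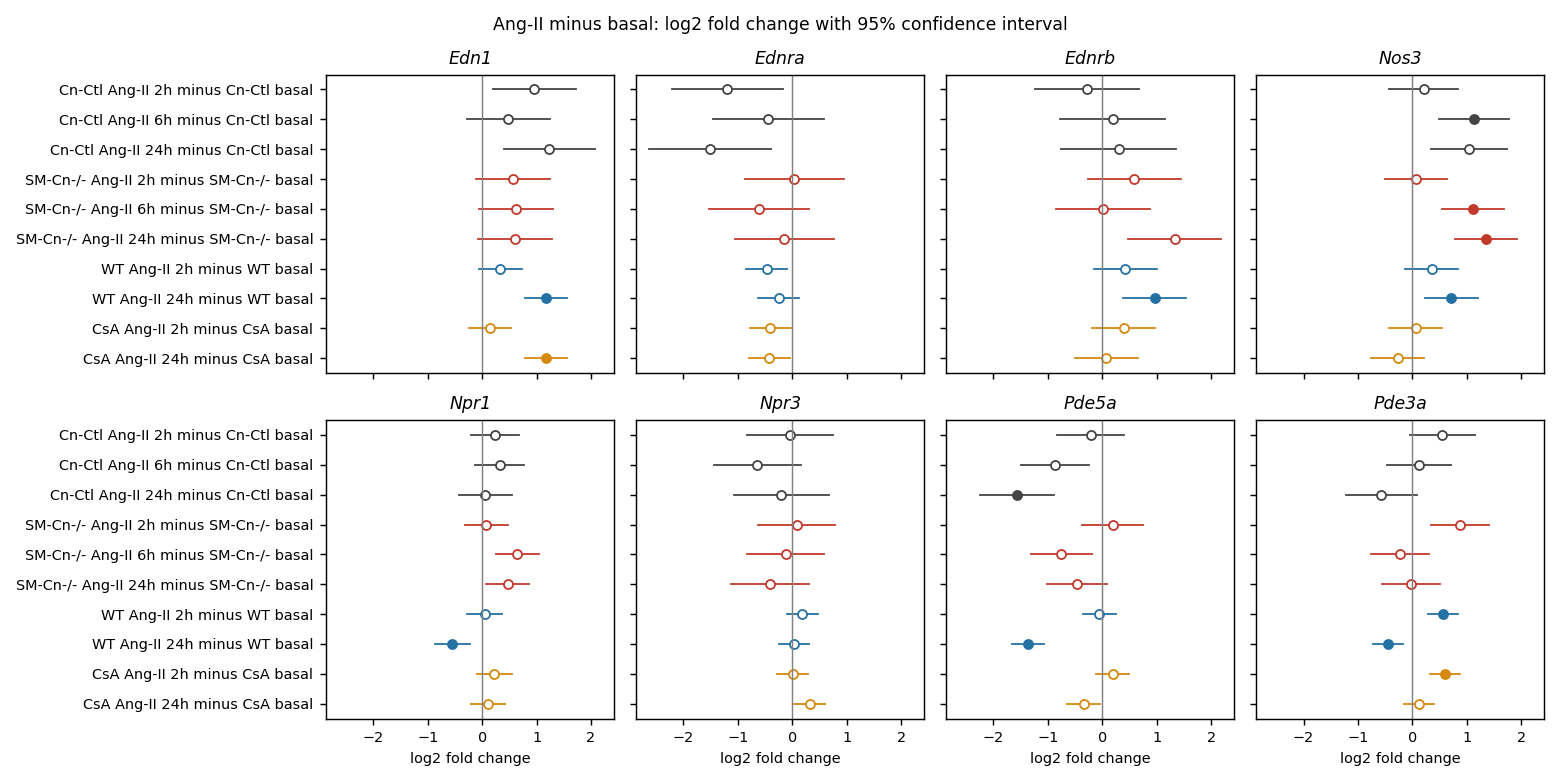
Log2 fold change of Ang-II against basal (horizontal axis) with its 95% confidence interval for each of the 8 genes, 1 row per arm and time; filled circles have an adjusted p under 0.05 by limma and open circles do not. Edn1 at 24 h in WT and CsA-treated mice and Pde5a at 24 h in WT mice lie farthest from 0 relative to their intervals, and intervals are wider in the Cn-Ctl and SM-Cn-/- arms.

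Edn1, the gene for the endothelin-1 precursor, rose 24 h after the start of Ang-II with and without CsA. It measured 14.2, 14.4 and 15.3 in the WT basal libraries and 32.6, 37.5 and 31.0 at 24 h. In CsA-treated mice it measured 15.1, 14.6 and 16.3 at basal and 25.0, 34.3 and 50.8 at 24 h. In both arms every 24 h library lay above every basal library. The log2 fold change of Edn1 was 1.17 ± 0.18 (SE, 3 libraries per group) in WT mice (adjusted p = 0.000151) and 1.18 ± 0.18 in CsA-treated mice (adjusted p = 0.00177). The difference between both responses was 0.003 on the log2 scale, with a 95% interval of -0.55 to 0.55 (adjusted p = 0.996). At 2 h Edn1 was between 16.3 and 21.4 in WT and between 14.7 and 18.7 in CsA-treated mice, and neither comparison passed.

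In the genotype experiment Edn1 passed in no comparison. Edn1 in the Cn-Ctl basal libraries was 18.6 and 17.98, against 22.8, 36.5 and 55.7 at 2 h and 52.7 and 36.1 at 24 h. At 6 h Cn-Ctl libraries measured 24.7, 39.7 and 17.1, overlapping with basal. At 2 h and 24 h no library overlapped with basal, but the log2 differences of 0.96 ± 0.37 at 2 h (adjusted p = 0.143) and 1.23 ± 0.40 at 24 h (adjusted p = 0.0771) did not pass. DESeq2 on the recovered reads called both (adjusted p = 0.04996 and 0.0275). SM-Cn-/- libraries measured 22.6, 20.5 and 20.8 for Edn1 at basal and 47.3, 30.5 and 22.1 at 2 h, with overlap. At 6 h they measured 24.8 to 44.9, and at 24 h 39.4, 31.7 and 27.6, in both cases all above basal. The log2 difference at 24 h was 0.60 ± 0.33 (adjusted p = 0.51).

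The 250 bases before the annotated start of Edn1 are shown because Edn1 was the gene of this set that rose in both arms of the CsA experiment at 24 h. They lie at chr13:42301226-42301475 on the plus strand (GRCm38.p6, RefSeq), directly upstream of the gene, which GENCODE places at chr13:42301476-42307990. Capitals mark the letters CAGAC, bound by Smad factors, and the letters GGAAA, the core bound by NFAT factors, the substrates of calcineurin, each searched on both strands.

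Edn1 upstream: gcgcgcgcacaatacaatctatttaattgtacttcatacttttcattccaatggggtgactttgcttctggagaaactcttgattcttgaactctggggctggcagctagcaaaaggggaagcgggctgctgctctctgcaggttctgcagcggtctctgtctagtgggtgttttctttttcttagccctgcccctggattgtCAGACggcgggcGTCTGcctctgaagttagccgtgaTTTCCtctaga

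The Edn1 window held 2 copies of CAGAC and 1 of GGAAA. Over 32851 mouse promoter windows of the same length, 42.2% held CAGAC and 55.6% held GGAAA, so these short letters are common. RefSeq windows were given for 6 of the 8 genes, and CAGAC occurred in 4 of the 6 and GGAAA in 3. The AP-1 element TGANTCA (6.75% of all windows), the cyclic AMP response element (1.55%), the hypoxia element ACGTG (16.6%) and the CArG box (1.47%) occurred in none of the 6.

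Of the endothelin receptor genes, Ednrb passed in 2 comparisons. Ednra, the type A receptor gene (chr8:77663031-77724464, minus strand), passed the test in 0 of 22 comparisons. Its values in Cn-Ctl mice were 25.7 and 15.97 at basal and 7.01 and 6.60 at 24 h, where the log2 difference of -1.51 ± 0.54 did not pass (adjusted p = 0.108). In CsA-treated mice Ednra measured 19.0, 15.8 and 14.1 at basal and 12.9, 10.9 and 12.2 at 24 h (log2 difference -0.42 ± 0.18, adjusted p = 0.146). Both sets of 24 h libraries lay below basal without overlap. The WT libraries at 24 h (11.4 to 13.31) also lay below basal (13.36 to 15.4), by a narrow margin, and those of SM-Cn-/- mice overlapped with basal.

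Ednrb, the type B receptor gene (chr14:103814625-103844402, minus strand), rose at 24 h in WT mice. The WT libraries measured 9.75, 8.60 and 11.9 for Ednrb at basal and 19.7, 19.2 and 20.9 at 24 h, a log2 fold change of 0.96 ± 0.27 (adjusted p = 0.0121). It was also higher in CsA basal than in WT basal libraries, at 22.8, 17.8 and 20.8, a log2 fold change of 0.99 ± 0.27 (adjusted p = 0.0153). Without WT basal replicate 2 neither Ednrb call was kept (adjusted p = 0.0522 and 0.0623), nor was the second without CsA basal replicate 1 (0.0543). Relative to the mean log2 value of the 12 endothelial markers, a measure chosen after the values had been seen, the Ednrb difference was 0.43 at 24 h in WT mice, and between CsA basal and WT basal it turned to -0.12 with overlap. In the CsA arm Ednrb measured 15.7 to 31.3 at 24 h, overlapping with basal, and the response differed from that of WT by -0.89 ± 0.39 (adjusted p = 0.152). SM-Cn-/- libraries measured 9.33, 8.04 and 3.48 at basal and 22.7, 22.01 and 9.61 at 24 h for Ednrb (log2 difference 1.33 ± 0.41, adjusted p = 0.154).

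Nos3, which encodes the nitric oxide synthase of endothelium (chr5:24364810-24384474, plus strand), was higher at 6 h of Ang-II in both genotypes. At 2 h it was 11.7 to 19.6 in Cn-Ctl and 14.6 to 21.9 in SM-Cn-/- mice, overlapping with basal in both. In Cn-Ctl mice it measured 12.6 and 14.1 at basal and 23.4, 27.1 and 42.2 at 6 h, a log2 fold change of 1.13 ± 0.31 (adjusted p = 0.0378). In SM-Cn-/- mice Nos3 measured 16.9, 20.5 and 15.4 at basal, 38.0, 37.6 and 40.4 at 6 h and 41.2, 49.96 and 45.0 at 24 h. The log2 fold change in SM-Cn-/- mice was 1.12 ± 0.27 at 6 h (adjusted p = 0.0305) and 1.35 ± 0.27 at 24 h (adjusted p = 0.0213). All treated libraries of these 3 comparisons lay above basal. When only the groups compared entered the fit, the 6 h calls were lost, with an adjusted p of 0.192 for Cn-Ctl and 0.0586 for SM-Cn-/- mice. Leaving out a library lost the Cn-Ctl call for basal replicates 2 and 3 and 6 h replicates 2 and 3 (adjusted p 0.0605 to 0.257). Each SM-Cn-/- call was lost without any 1 of the libraries compared other than SM-Cn-/- basal replicate 2 (adjusted p 0.0508 to 0.135). In the Cn-Ctl libraries at 24 h Nos3 was 18.7 and 41.5 (log2 difference 1.04 ± 0.34, adjusted p = 0.0768).

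In WT mice Nos3 measured 41.5, 20.1 and 35.2 at basal and 51.3, 46.5 and 55.7 at 24 h, a log2 fold change of 0.72 ± 0.23 (adjusted p = 0.0237). Leaving out WT basal replicate 2, the lowest library, gave 0.41 (adjusted p = 0.143), and the call was also lost without WT Ang-II 24h replicate 1 (0.0543) or 3 (0.0725). The CsA basal libraries were higher than all WT basal libraries, at 66.0, 84.2 and 69.2, with a log2 fold change for Nos3 of 1.22 ± 0.23 (adjusted p = 0.00222). At 2 h Nos3 was 39.4, 39.6 and 39.9 in WT and 85.6, 87.1 and 58.3 in CsA-treated mice (log2 difference 0.93 ± 0.23, adjusted p = 0.061). At 24 h CsA-treated mice measured 50.4, 52.4 and 82.3, overlapping with their basal libraries. The Nos3 response at 24 h differed between CsA-treated and WT mice by -0.99 ± 0.33 (SE), which did not pass (adjusted p = 0.0661).

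Endothelial markers moved with Nos3 in the same libraries. The summed level of the 12 markers was 627 to 1019 in WT basal, 1098 to 1261 in WT at 24 h and 1584 to 1778 in CsA basal libraries. All 12 of 12 endothelial markers passed as higher in CsA basal than in WT basal (median log2 fold change 1.19), where 25.2% of all genes passed in either direction. At 24 h in WT mice 4 of 12 passed as higher (median 0.47), a share near the 35% of all genes that passed. Relative to the mean log2 value of these markers, the Nos3 difference was 0.11 between CsA basal and WT basal and 0.19 at 24 h in WT mice, and libraries overlapped in both. It was 0.72 at 6 h in Cn-Ctl, 0.84 at 6 h in SM-Cn-/- and 0.58 at 24 h in SM-Cn-/- mice on the same measure, with overlap in each. Their summed level there was 498 to 630 in Cn-Ctl basal, 804 to 901 in Cn-Ctl at 6 h, 763 to 1039.8 in SM-Cn-/- basal, 858 to 1775 in SM-Cn-/- at 6 h and 1505 to 1608 in SM-Cn-/- at 24 h. For Edn1 at 24 h it was 0.65 in WT and 1.46 in CsA-treated mice, and the treated libraries lay above basal in both. In whole tissue, more cells of a type and more RNA per cell cannot be told apart, and the part of the markers in these results was not tested.

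**Figure D3:**
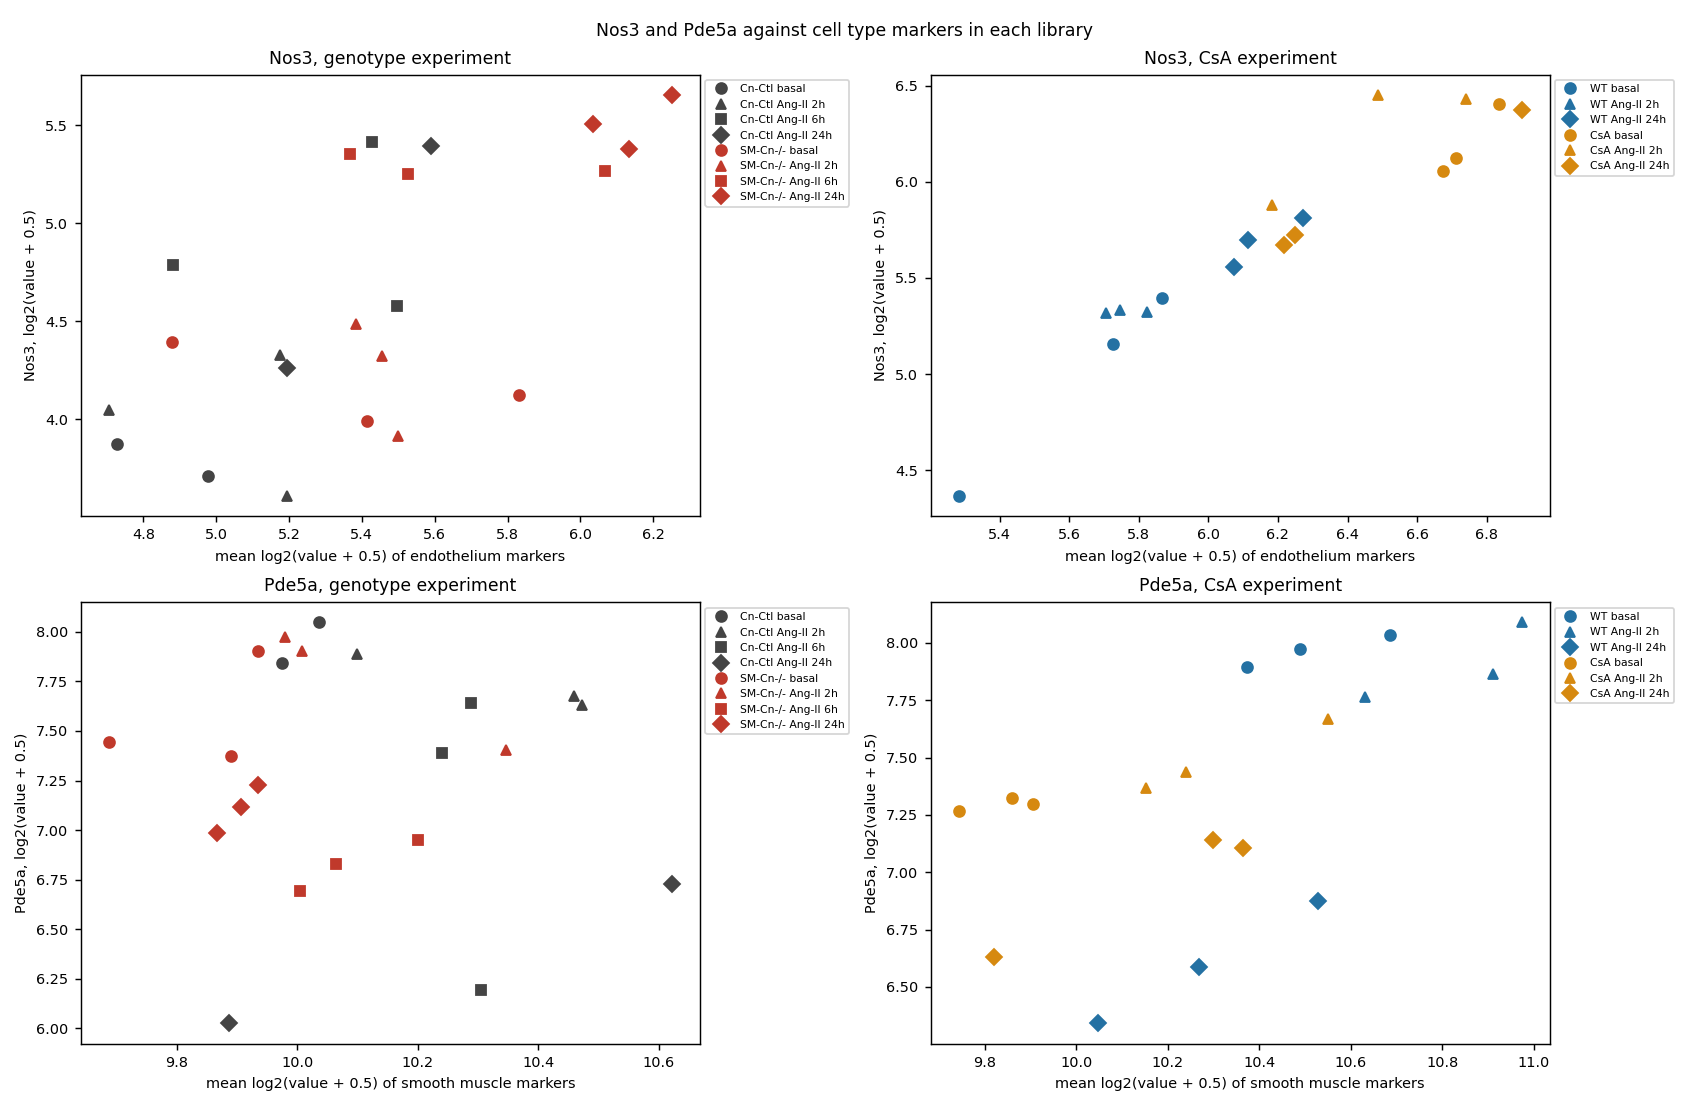
Each of the 40 libraries as a point, by log2(value + 0.5): Nos3 against the mean of the 12 endothelial markers (top) and Pde5a against the mean of the 10 smooth muscle markers (bottom), with the genotype experiment on the left and the CsA experiment on the right; colour is the arm and shape the time. In the CsA experiment the CsA basal libraries have the higher endothelial means (6.68 to 6.84 against 5.28 to 5.87 in WT basal) and the higher Nos3, and the WT 24 h libraries lie below WT basal in Pde5a.

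Of the natriuretic peptide receptor genes, Npr1 passed in 1 comparison. Npr1, the guanylyl cyclase receptor for atrial natriuretic peptide (chr3:90450591-90465866, minus strand), measured 365, 409.6 and 442 in WT basal libraries and 283, 223 and 334 at 24 h. The groups did not overlap, and the log2 fold change was -0.55 ± 0.15 (adjusted p = 0.00946), or -0.39 (adjusted p = 0.0632) without WT Ang-II 24h replicate 2. Relative to the smooth muscle markers it was -0.31, with overlap. The difference of the Npr1 response between CsA-treated and WT mice at 24 h was 0.65 ± 0.21 (adjusted p = 0.0626). In SM-Cn-/- mice Npr1 measured 319.9, 340.5 and 293 at basal and 455, 486 and 548 at 6 h, and the log2 difference of 0.64 ± 0.19 did not pass (adjusted p = 0.0758).

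Npr3, the clearance receptor gene (chr15:11839896-11907287, minus strand), passed in 0 of 22 comparisons. At 6 h it measured 19.3, 17.1 and 7.99 in Cn-Ctl and 44.0, 26.6 and 24.5 in SM-Cn-/- mice. These libraries did not overlap, and the log2 difference was 1.12 ± 0.34 (adjusted p = 0.102). It passed only when the replicate number entered the limma fit as a block or in some other alternative settings, not in the reported fit. SM-Cn-/- libraries already lay above Cn-Ctl at basal (29.0 to 36.3 against 18.2 to 26.3). They did so at 2 h as well (28.2 to 46.0 against 19.4 to 24.1), and at 24 h the genotypes overlapped. In the CsA experiment all 18 libraries measured between 22.03 and 35.3 for Npr3.

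Pde5a, the cyclic GMP phosphodiesterase that sildenafil inhibits (chr3:122728947-122859374, plus strand), fell at 24 h in both control arms. In WT mice it measured 237, 251 and 262 at basal, 272, 217 and 233 at 2 h, and 117, 80.6 and 95.6 at 24 h. The log2 fold change of Pde5a at 24 h was -1.37 ± 0.14 (adjusted p = 4.98e-06). In Cn-Ctl mice it measured 264 and 229 at basal and 106 and 64.6 at 24 h, a log2 fold change of -1.57 ± 0.33 (adjusted p = 0.00591). The Cn-Ctl call was lost without Cn-Ctl basal replicate 2 (adjusted p = 0.077) or Cn-Ctl Ang-II 24h replicate 3 (adjusted p = 0.141). At 6 h the Cn-Ctl libraries were 167, 199 and 72.6 (log2 difference -0.87 ± 0.30, adjusted p = 0.113).

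The fall of Pde5a was smaller with CsA. CsA basal libraries measured 159.7, 157 and 153, below all WT basal libraries, with a log2 fold change of -0.67 ± 0.14 (adjusted p = 0.00398). At 24 h they measured 140.5, 137 and 98.5 for Pde5a, a log2 difference from CsA basal of -0.34 ± 0.14 that did not pass (adjusted p = 0.145). The response at 24 h differed between CsA-treated and WT mice by 1.03 ± 0.20 on the log2 scale (adjusted p = 0.00853). This was the only 1 of the 8 genes to pass in that test, where 9.42% of all genes did. However, limma gave 5 of the 8 an unadjusted p under 0.05, as it did 3645 of 13738 genes, and DESeq2 called 4 of the 8. At 2 h 0 of the 8 genes passed in the test of the difference (background 0.146%), and edgeR and DESeq2 called 0. There 0 of the 8 had an unadjusted p under 0.05 with limma, against 1898 of 13738 genes.

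SM-Cn-/- mice measured 165, 239 and 174 for Pde5a at basal, 123, 113 and 103 at 6 h, and 149, 126 and 138 at 24 h. The libraries at both times lay below basal, with log2 differences of -0.75 ± 0.27 at 6 h (adjusted p = 0.147) and -0.46 ± 0.27 at 24 h (adjusted p = 0.539). The response of Pde5a at 24 h differed between the genotypes by 1.10 ± 0.42, with a 95% interval of 0.23 to 1.98, which did not pass (adjusted p = 0.299). Over the 8 genes, 0 of 24 tests of a difference in response between genotypes passed with limma, edgeR or DESeq2, and 1 had an unadjusted p under 0.05 with limma. Background shares at an adjusted p under 0.05 were 0.513% at 2 h, 0.0624% at 6 h and 0.513% at 24 h. An unadjusted p under 0.05 with limma came for 1150, 873 and 1588 of 14424 genes at these times.

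Pde3a, the phosphodiesterase of vascular and cardiac muscle that cyclic GMP inhibits (chr6:141249269-141507448, plus strand), rose at 2 h. It measured 293, 307 and 318 in WT basal libraries, 526, 380.2 and 459 at 2 h, and 262, 191 and 223 at 24 h. The log2 fold change of Pde3a was 0.56 ± 0.13 at 2 h (adjusted p = 0.00584) and -0.45 ± 0.13 at 24 h (adjusted p = 0.0141, or 0.0847 without WT Ang-II 24h replicate 2). CsA-treated mice measured 200.05, 221 and 178 at basal and 260.1, 325 and 321 at 2 h, a log2 fold change of 0.59 ± 0.13 (adjusted p = 0.00567). Under quantile normalization the 2 h changes were 0.27 (adjusted p = 0.133) and 0.33 (adjusted p = 0.0672). Smooth muscle markers summed to 29189.6 to 39237 in WT basal and 32273 to 40315 at 2 h, and to 18563 to 20757 in CsA basal and 22963 to 29509 at 2 h. Relative to their mean log2 value the 2 h change of Pde3a was 0.24 in WT mice, without overlap, and 0.12 in CsA-treated mice, with overlap. SM-Cn-/- libraries measured 161, 172 and 151 for Pde3a at basal and 314, 339 and 242 at 2 h (log2 difference 0.87 ± 0.25, adjusted p = 0.113), and Cn-Ctl libraries 287 and 228 at basal and 335, 363 and 434 at 2 h (0.55 ± 0.28, adjusted p = 0.311). In all 4 arms every 2 h library lay above basal.

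Levels of Pde3a were also lower with CsA at basal and 2 h and, among the differences that passed, at 1 time in SM-Cn-/- mice. At 24 h the CsA libraries (205 to 223) overlapped with WT (191 to 262). At basal the SM-Cn-/- libraries (151 to 172) also lay below Cn-Ctl (228 to 287) without overlap, a difference that did not pass. CsA against WT gave log2 fold changes of -0.62 ± 0.13 at basal (adjusted p = 0.00397) and -0.59 ± 0.13 at 2 h (adjusted p = 0.0401), and neither pair of groups overlapped. Quantile normalization ended the 2 h call (adjusted p = 0.114), as did leaving out WT Ang-II 2h replicate 1 or 3 or CsA Ang-II 2h replicate 1 or 2 (0.0518 to 0.217). Relative to the smooth muscle markers the 2 h difference was -0.06, with overlap. SM-Cn-/- against Cn-Ctl gave -1.01 ± 0.25 at 6 h (adjusted p = 0.0396), from 202, 131 and 99.1 against 335, 334.6 and 190.4. These libraries overlapped, and edgeR (adjusted p = 0.0588) and quantile normalization (adjusted p = 0.071) did not call it. It was also lost without Cn-Ctl Ang-II 6h replicate 1 or 2 or SM-Cn-/- Ang-II 6h replicate 2 or 3 (adjusted p 0.131 to 0.251).

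**Figure D4:**
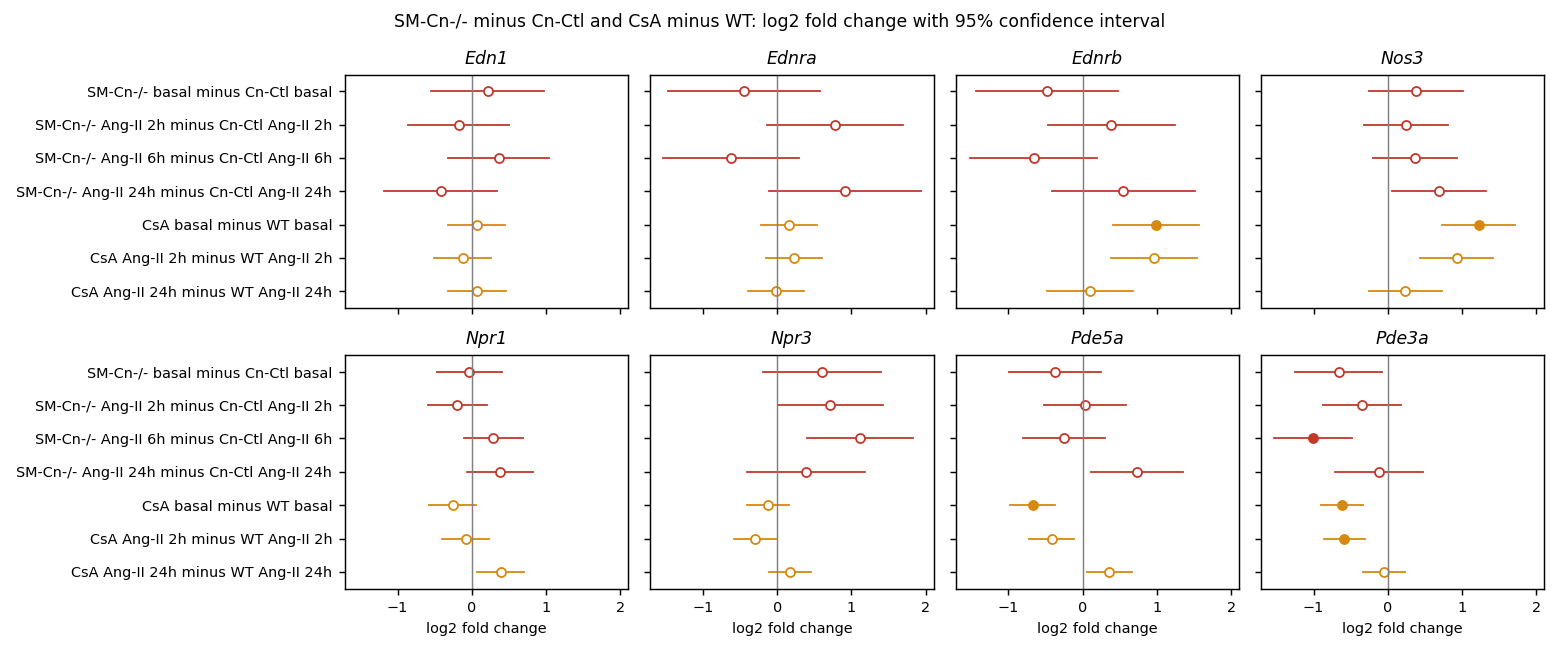
Log2 difference of SM-Cn-/- from Cn-Ctl and of CsA from WT at each time (rows) with its 95% confidence interval, for each of the 8 genes; filled circles have an adjusted p under 0.05 by limma. The filled circles are Ednrb, Nos3, Pde5a and Pde3a at CsA basal, Pde3a at 2 h with CsA, and Pde3a at 6 h in SM-Cn-/- mice.

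At basal, 4 of the 8 genes passed between CsA and WT, where 25.2% of all genes did. Ednrb and Nos3 were higher with CsA and Pde5a and Pde3a lower. The WT mice carried no pump at that stage, so CsA and the pump cannot be told apart. At 2 h 1 of the 8 passed (background 1.33%), and at 24 h 0 did (5.58%). With limma 5 of the 8 had an unadjusted p under 0.05 at 2 h and 2 at 24 h. Over the 13738 genes tested these numbered 2546 and 3263. At 2 h edgeR called 1 of the 8 and DESeq2 called 3, and at 24 h both called 0. Between SM-Cn-/- and Cn-Ctl mice 0 passed at basal (background 0.0139%), 0 at 2 h (3.7%), 1 at 6 h (1.98%) and 0 at 24 h (4.94%). The counts at an unadjusted p under 0.05 with limma at basal, 2 h, 6 h and 24 h were 1, 1, 2 and 2. Over the 14424 genes tested these numbered 757, 2085, 2012 and 2560. Of the 8 genes, edgeR called 0 at each time, and DESeq2 called 2 at 6 h and 0 at the others.

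Smooth muscle markers moved with both phosphodiesterase genes in the CsA experiment. Of the 10 markers, 9 were lower in CsA basal than in WT basal (median log2 fold change -0.76), with sums of 18563 to 20757 against 29189.6 to 39237. Relative to the mean log2 value of these markers, the difference at basal was 0.01 for Pde5a and 0.06 for Pde3a. At 24 h in WT mice, by contrast, the same measure gave -1.13 for Pde5a, with no overlap, and the difference of its response with CsA was 0.47. On this measure the Pde5a difference at 24 h was -1.82 in Cn-Ctl, -0.66 in CsA-treated and -0.53 in SM-Cn-/- mice, again without overlap in each. Adipose markers (7 of 8 higher) and macrophage markers (7 of 7 higher) also differed between CsA basal and WT basal, and their part was not tested. Adipose markers summed to 3387 to 6676 in CsA basal libraries against 620 to 1191 in WT basal. The macrophage sums were 285 to 352 against 106 to 155.

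Other genes of these pathways were drawn from 6 lists, and are given for the 12 genes with the smallest adjusted p in any comparison. Among guanylyl cyclase genes, 3 of 4 tested fell at 24 h in WT mice, where 35% of all genes passed in either direction. Gucy1a3, which encodes the alpha subunit of soluble guanylyl cyclase, measured 235, 255 and 267 in WT basal libraries, 125, 129 and 129.9 at 2 h, and 126, 79.8 and 103 at 24 h. Its log2 fold changes of -0.98 at 2 h (adjusted p = 0.000186) and -1.31 at 24 h (adjusted p = 7.69e-06) compare with -1.40 (adjusted p = 0.00886) and -1.75 (adjusted p = 0.00505) in Cn-Ctl mice. As for Pde5a, the Gucy1a3 response at 24 h was smaller with CsA, by 0.82 on the log2 scale (adjusted p = 0.0217). Npr2, the receptor cyclase for C-type natriuretic peptide, fell by 0.60 on the log2 scale at 24 h in WT mice (adjusted p = 0.000183).

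Of 8 cyclic GMP effector genes tested, 4 fell and 0 rose at 24 h in WT mice (35% of all genes passed), where the median of the list was -0.56 and that of all genes 0.004. They included Mrvi1, the kinase substrate that restrains calcium release (log2 fold change -0.80, adjusted p = 0.000356), the large-conductance potassium channel gene Kcnma1 (-0.84, adjusted p = 0.000661), and Ppp1r12a, the targeting subunit of myosin phosphatase (-1.03, adjusted p = 9.61e-05). In CsA basal against WT basal, 6 of the 8 were lower and 0 higher (median -0.67, against -0.016 for all genes, of which 25.2% passed). The smooth muscle markers had a median of -0.76 in that comparison, and their part was not tested.

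Among the peptidases that process endothelins, Ece1, the converting enzyme gene, rose in both genotypes. It measured 41.1 and 52.1 in Cn-Ctl basal libraries, 88.6, 100.3 and 98.7 at 2 h, and 160.6 and 159.6 at 24 h. The 24 h rise on the log2 scale came to 1.78 in Cn-Ctl (adjusted p = 7.13e-05), 1.14 in SM-Cn-/- (adjusted p = 0.00373) and 1.29 in WT mice (adjusted p = 2.41e-05). In CsA-treated mice the Ece1 response at 24 h was lower than in WT mice, with a difference of -0.91 (adjusted p = 0.0224).

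Of 18 genes for nitric oxide synthesis and its regulation, 5 rose and 1 fell at 24 h in WT mice, a share near the 35% of all genes that passed. The arginine transporter gene Slc7a1 rose by 1.304 on the log2 scale (adjusted p = 0.000109) and the arginase gene Arg1 by 4.40 (adjusted p = 5.14e-05), while the transporter gene Slc7a2 fell by 1.03 (adjusted p = 0.000214). In SM-Cn-/- mice at 2 h Slc7a1 was lower than in Cn-Ctl mice, with a log2 fold change of -1.16 (adjusted p = 0.00397). Macrophage markers, 7 of 7 higher, moved with Arg1 at 24 h in WT mice, and their part was not tested.

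Among the other phosphodiesterase genes, Pde4b separated the genotypes. Pde4b encodes a cyclic AMP phosphodiesterase, and it measured 42.7 and 41.9 in Cn-Ctl basal libraries and 106, 159 and 103 at 2 h, against 45.5, 35.8 and 39.9 and then 42.4, 35.7 and 46.8 in SM-Cn-/- mice. The 2 h libraries of the genotypes did not overlap. The difference of the Pde4b response at 2 h was -1.45 on the log2 scale (adjusted p = 0.0115), the only 1 of 17 genes of its list to pass. Pde4a fell at 2 h in WT mice (-1.04, adjusted p = 0.000209), and the calmodulin-dependent Pde1b rose at 24 h (1.15, adjusted p = 0.00031).

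Over the 40 libraries, after each experiment's mean was subtracted, the genes most like each member were named by Pearson's r on the log2 scale, as a description over libraries that share groups and normalization. Nos3 was most like Rasip1 (r = 0.873), Grina (0.857) and Adcy4 (0.852). Pde5a was most like Itpr1 (0.952), Kcnab1 (0.941) and Oxct1 (0.937), and Pde3a like Csnk1a1 (0.921), Msrb3 (0.912) and Yap1 (0.910). Npr1 was most like Hdac5 (0.844), Gtpbp2 (0.843) and Tns2 (0.826), and Edn1 like Mmp3 (0.797), Map4k4 (0.791) and Cyp1b1 (0.773). The nearest genes of Ednrb were Sh3bp5 (0.697), Gramd1b (0.695) and Sema7a (0.675), those of Ednra Senp7 (0.796), Rps6ka5 (0.742) and Trim34a (0.734), and those of Npr3 Spata6 (0.759), Rbbp9 (0.751) and Ctso (0.746). For Npr3 the likeness came from the genotype libraries, with r of 0.811 for Spata6, 0.839 for Rbbp9 and 0.899 for Ctso there, against 0.054, 0.167 and -0.27 in CsA and WT libraries. Within the set, Pde5a and Pde3a were the most alike pair (r = 0.685), and Nos3 ran opposite to both (-0.643 with Pde5a and -0.575 with Pde3a).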

How the data were processed

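Aortic RNA was primed with oligo-dT and sequenced on an Illumina Genome Analyzer IIx. The submitters' processing notes name Bowtie 0.12.7, RSEM 1.16 and GRCm38. The deposited signal values are, as tested on the files, (reads + 0.5) divided by a scaled library size for each library, and the step by which the authors scaled them is not given in the sources used here. All values (100%) converted back to whole reads (tolerance 0.01). GENCODE vM21 gave biotypes and positions.

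limma 3.58.1 (trend) was fitted in R 4.3.3 to log2(signal + 0.5) over all groups of an experiment, for protein-coding genes with at least 1 in at least 2 libraries, with Benjamini-Hochberg adjustment and a threshold of 0.05. Fold changes are on this scale, which understates changes of low genes. The fit was tested on simulated data. The first criteria were not met in the genotype experiment, where too few simulated 4-fold changes were called and estimates were compressed, and were replaced by checks of direction, false calls and size on the log2(signal + 0.5) scale, which were met. Alternatives were pseudocount 1, quantile normalization, edgeR 4.0.16 and DESeq2 1.42.0 on recovered reads, no filter, only the groups compared, the replicate number as a block, and leaving out each library. Replicates differed by more than sampling noise (chi-square per degree of freedom at least 5.97). Named genes were the 8 members, Ppp3r1, at most 12 pathway genes by smallest adjusted p, and the 3 genes most like each member. Members and lists were chosen with earlier results of these data known. T cell markers were not listed in the CsA table.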

Additional observations from a re-analysis of the deposited data

Results flagged for a closer look

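The response of Pde5a to 24 h of Ang-II differed between CsA-treated and WT mice by 1.03 on the log2 scale (adjusted p = 0.00853, limma), a test of the difference itself. Pde5a fell by 1.37 on the log2 scale in WT mice, where all 3 libraries lay below basal, and the change in CsA-treated mice was -0.34, also with all 3 libraries below basal. The CsA mice started from lower Pde5a values (153 to 159.7 against 237 to 262). Groups had 2 or 3 libraries, so no library could be tested as an outlier within its group.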

How the results depend on the processing

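Of the 140 values that the planned settings gave for the 20 calls, 130 kept direction and call and 10 kept direction only, and of the 123 values from leaving out a library 91 kept the call and 32 kept direction only. Among tests not called, 24 values under the planned settings and 102 from leaving out a library changed sign. The 6 signs that turned for the difference in the Edn1 response at 24 h with CsA came from leaving out 1 library, over which it ran from -0.258 to 0.245. With DESeq2 on recovered reads the calls were 6 against 2 in Cn-Ctl, 4 against 2 in SM-Cn-/-, 2 against 1 between genotypes and 4 against 1 for the CsA response. With only the groups compared they were 1 in Cn-Ctl, 0 between genotypes and 3 for the CsA response, with quantile normalization 0 between genotypes and 1 in CsA, and with edgeR 0 between genotypes. Leaving out 1 library gave 5 to 8 calls in WT, 2 to 3 in CsA, 0 to 3 in Cn-Ctl, 0 to 1 between genotypes, 0 to 2 in SM-Cn-/-, 4 to 6 for CsA against WT, 1 to 5 for the CsA response and 0 to 0 for the genotype response. The cause was not tested. Where an arm was left with 1 library, that library was assumed to vary like the other groups. Relative to marker means, chosen after seeing the data, 3 of the 20 calls stayed within about 1 residual SD. A further 14 moved by more with the same sign, and 3 changed sign. The latter were the CsA basal differences, at -0.12 for Ednrb, 0.00905 for Pde5a and 0.0612 for Pde3a. Members not called at CsA basal measured -1.05 (Edn1), 0.84 (Ednra), 0.56 (Npr3) and 0.42 (Npr1), without overlap on this measure. The markers themselves differed there, so a gene of unchanged value also shifts, and these are not further CsA differences. Mean normalized values in CsA basal against WT basal were 15.3 against 14.6 (Edn1), 16.3 against 14.4 (Ednra), 25.0 against 27.3 (Npr3) and 338 against 406 (Npr1).

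Replicate numbers did not pair libraries in general: 27 of 71 same-numbered pairs in the genotype experiment and 11 of 45 in the CsA experiment had a correlation of deviations over 0.1, and 10 of 22 and 6 of 18 libraries correlated best with their own number. Of 12 comparisons with at least 3 pairs, 1, CsA at 2 h against CsA basal, had every pair over 0.1 (0.169 to 0.377), and there the block kept the Pde3a call (adjusted p = 0.0111). With the replicate block the calls between genotypes were 2 against 1, since Npr3 at 6 h passed (adjusted p = 0.0339), and Pde3a at 2 h with CsA did not (0.0689). Reads limit Ednra and Ednrb most in the genotype experiment.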
